A study of Mus musculus with 6 samples.

Results

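The genes described here are the proteasome subunits and regulators, all rows of the liver expression table with a symbol that begins with Psm, then 1 letter from a to g and a number. The pattern matched 53 rows, 3 pseudogene rows were taken out, and 50 genes of the 28880 in the table remained. By their known roles they are 14 constitutive subunits of the 20S core, 3 inducible catalytic subunits of the immunoproteasome, 1 core subunit of the testis (Psma8), 17 subunits of the 19S cap, 7 assembly chaperones, 5 activator genes and 1 inhibitor. The remaining 2, Psmc3ip and Psme3ip1, match the pattern by symbol only and encode proteins named as partners of a subunit or activator.

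The libraries came from whole livers of male wild type C57BL/6J mice, aged 6 to 8 weeks, and both groups carried the same batch label. For the ethanol group, 3 mice went without food for 12 h, then received 50% ethanol by mouth at 6 g/kg as a single dose, and their livers were taken 24 h later. The 3 control mice were kept without ethanol. The sources describe the fast for the ethanol model and mention neither a fast nor a vehicle for the control mice, so the ethanol, the fast and the gavage cannot be told apart in this comparison.

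The proteasome is the protease that degrades proteins tagged with ubiquitin. Its barrel-shaped core is built of outer alpha rings and inner beta rings, and the beta subunits PSMB5, PSMB6 and PSMB7 cut peptide bonds with different preferences. The 19S cap recognises the ubiquitin chain, removes it, and unfolds the substrate with a ring of ATPases (Psmc genes), while its non-ATPase subunits (Psmd genes) form the lid and the base. Under interferon, and in leukocytes without it, PSMB8, PSMB9 and PSMB10 take the places of PSMB5, PSMB6 and PSMB7 in newly built cores, which favours peptides for antigen presentation. In liver, loss of proteasome activity is known from long-term ethanol feeding, and the factor NRF1 (Nfe2l1) drives subunit genes when activity drops.

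All 50 genes were among the 16717 that passed edgeR's filter on low counts. Libraries held 60514417 to 74210869 counts, and the median gene tested had a log2 fold change of -0.04. TMM, which scales libraries so that most genes stay level, gave factors of 0.77 to 0.84 for the ethanol-exposed and 1.26 to 1.27 for the control mice, so the fold changes below are relative to it. CPM below is a gene's count scaled to the TMM-corrected library total, and per-mouse values are in the order of replicates 1, 2 and 3. Adjusted p-values come from edgeR (quasi-likelihood test, two-sided), adjusted by Benjamini and Hochberg's method (BH) over all genes tested, and a gene that rose or fell had an adjusted p under 0.05.

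Promoters are shown for 5 members on which the results turn. Psmd8 and Psma1 are the cap and core subunits whose calls held under all 17 alternatives, Psmb5 is the core subunit with the highest mean FPKM (read fragments corrected for the length of the transcript and the size of the library), and Psmb8 and Psmb9 are inducible subunits of 1 locus whose values went apart. Each window, from RefSeq on GRCm38.p6, runs from 250 bases before to 50 bases after a gene's start, 5′ to 3′ on the gene's strand, and capitals mark motif matches. The windows are chr7:29180624-29180923 (minus strand) for Psmd8, chr7:114276067-114276366 (minus strand) for Psma1, chr14:54617946-54618245 (minus strand) for Psmb5, chr17:34197945-34198244 (plus strand) for Psmb8 and chr17:34187281-34187580 (minus strand) for Psmb9.
Psmd8: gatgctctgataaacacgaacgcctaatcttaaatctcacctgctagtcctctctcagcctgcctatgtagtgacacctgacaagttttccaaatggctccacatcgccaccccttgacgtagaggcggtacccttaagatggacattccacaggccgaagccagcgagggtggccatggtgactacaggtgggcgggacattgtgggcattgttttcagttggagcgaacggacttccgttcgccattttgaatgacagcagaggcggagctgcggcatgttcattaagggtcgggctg
Psma1: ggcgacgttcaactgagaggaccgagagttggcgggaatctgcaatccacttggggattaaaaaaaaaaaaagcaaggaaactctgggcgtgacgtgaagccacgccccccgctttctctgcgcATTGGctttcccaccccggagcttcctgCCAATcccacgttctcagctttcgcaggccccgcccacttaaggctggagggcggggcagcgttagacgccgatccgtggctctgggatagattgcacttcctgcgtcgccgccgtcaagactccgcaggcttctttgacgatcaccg
Psmb5: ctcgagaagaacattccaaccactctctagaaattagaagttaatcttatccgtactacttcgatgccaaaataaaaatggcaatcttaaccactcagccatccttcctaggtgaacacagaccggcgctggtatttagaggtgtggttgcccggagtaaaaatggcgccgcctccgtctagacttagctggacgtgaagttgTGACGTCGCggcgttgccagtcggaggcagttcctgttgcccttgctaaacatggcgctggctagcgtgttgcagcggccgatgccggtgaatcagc
Psmb8: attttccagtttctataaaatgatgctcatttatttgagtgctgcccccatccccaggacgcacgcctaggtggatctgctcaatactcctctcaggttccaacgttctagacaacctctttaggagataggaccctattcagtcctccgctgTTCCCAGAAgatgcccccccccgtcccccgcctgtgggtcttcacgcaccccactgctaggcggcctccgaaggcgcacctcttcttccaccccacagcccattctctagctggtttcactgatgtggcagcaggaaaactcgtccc
Psmb9: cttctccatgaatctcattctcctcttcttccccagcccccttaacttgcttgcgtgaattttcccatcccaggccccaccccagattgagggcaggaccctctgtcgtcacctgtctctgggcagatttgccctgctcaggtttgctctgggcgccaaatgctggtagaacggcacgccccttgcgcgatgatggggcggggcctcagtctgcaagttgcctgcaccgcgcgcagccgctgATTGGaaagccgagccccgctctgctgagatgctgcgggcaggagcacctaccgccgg

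In these windows, Psmb5 held TGACGTCGC, a match to the antioxidant response element core TGACNNNGC that NRF1 and NRF2 bind, starting at base -47 from the start. Psma1 held the NF-Y box CCAAT on the minus strand at -126 and on the plus strand at -98, and Psmb9 held it on the minus strand at -8. Psmb8 held TTCCCAGAA, a match to the STAT site TTCNNNGAA, at -97. None of the motifs searched was found in the Psmd8 window, which says only that these letters are not in it. Windows were at hand for 42 of the 50 members, 46 windows in all since some genes have more than 1, and both strands were searched, with matches that share bases counted apart. TGACNNNGC was found in 6 of the 46 member windows (13.0%) against 12.4% of all 32851 windows, CCAAT in 15 (32.6%) against 37.4%, and TTCNNNGAA in 3 (6.52%) against 8.30%. The core of the interferon-stimulated response element was found in 5 (Psmb3, Psmd4, Psmd9, Psme1 and Psmg4), 10.9% against 3.44%, and in none of the 3 inducible subunits. These are counts of letters, with no test made on them.

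The first comparison asked which proteasome genes differ between livers of ethanol-exposed and control mice. Under TMM scaling 15 of the 50 rose (30.0%), where 21.5% of all genes tested rose, and 9 fell (18.0%), where 21.5% of all genes tested fell. The rises were in 7 core subunits, 4 cap subunits, Psmb10, Psmd9, Psme1 and Psmf1, and the falls in 4 cap subunits, Psma1, Psmb9, Psmd5, Psmg2 and Psme4. The median log2 fold change of the members was 0.14. With the threshold of a log2 fold change beyond 1 added, Psmd8 was the only member that rose, where 10.4% of all genes tested rose, and Psmd5 the only one that fell, where 13.8% of all genes tested fell. In CPM, 20 of the 50 lay wholly higher in the ethanol-exposed mice than in the control mice and 14 wholly lower, where 28.0% of all genes tested lay wholly higher and 31.0% wholly lower. These shares stand behind each statement below on CPM that the groups did not overlap. In the deposited FPKM, 1 of the 50 lay wholly higher, 38 lay wholly lower and 11 overlapped. Of the 14 core subunits, 0 lay wholly higher in FPKM and 12 wholly lower. No count of overlap over all genes was made for FPKM, so these FPKM counts are not a result about the members. FPKM is scaled to library size. By limma on log2(FPKM + 1), 51.7% of all genes tested fell and 7.47% rose, beside 64.0% and 2.0% of the members.

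The direction of the group as a whole depended on the scaling. With library size alone, which moved the median gene tested to a log2 fold change of -0.71 and the median member to -0.53, 1 member rose (2.0%, Psmd8), where 7.39% of all genes tested rose, and 29 fell (58.0%), where 48.3% of all genes tested fell. With the trend of fold change with transcript length removed, 17 rose (34.0%), where 23.9% of all genes tested rose, and 4 fell (8.0%), where 17.9% of all genes tested fell. The trend ran from a median log2 fold change of 0.53 over the 1455 genes tested that were under 1000 bases to -0.16 over the 2134 of at least 9000 bases. Core transcripts had a median length of 2499 bases and cap transcripts of 3020. In all 18 settings (the 17 alternatives and TMM scaling with edgeR) Psmd8 had the highest log2 fold change of the members with a value, as the plot of fold changes by role shows for TMM scaling and library size alone. Among these settings, library size alone and limma on FPKM share the same scaling between libraries. Calls made in them are therefore not separate results.

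**Figure D1:**
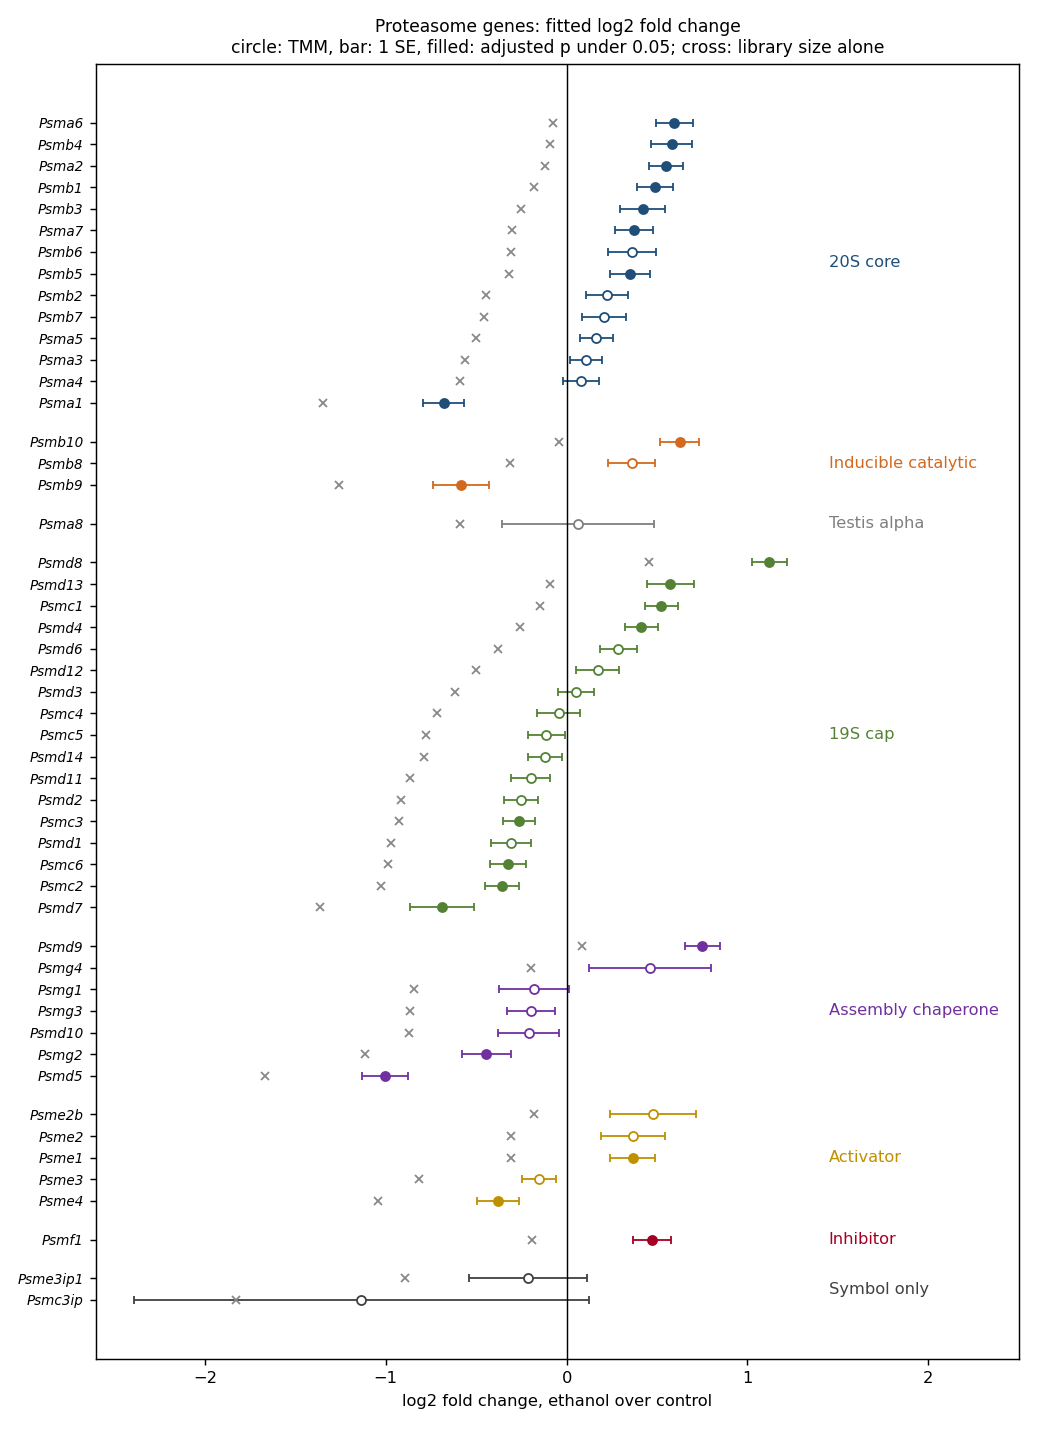
Fitted log2 fold change, ethanol-exposed over control, of the 50 proteasome genes grouped by role (vertical axis), with circles for TMM scaling, bars for 1 SE, filled circles for an adjusted p under 0.05 (edgeR, 3 mice per group) and crosses for library size alone. Of the 14 core subunits 13 lie above 0 under TMM and none with library size alone, whereas Psmd8 lies above 0 and Psma1 below 0 under both.

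Of the 14 constitutive core subunits 7 rose under TMM scaling (50.0%), 1 fell (7.14%) and 6 did not pass, with a median log2 fold change of 0.36, where 21.5% of all genes tested rose and 21.5% fell. Among genes of mean FPKM 5 or more alone, refitted, 3 of the 14 rose and the median was 0.08, where 29.3% of the 4328 genes rose and 27.5% fell. The count of 7 was 4 without ethanol replicate 1 or any 1 of the control mice, where 14.5% to 16.9% of all genes tested rose. Of the alpha ring, whose subunits form the gate of the barrel, Psma2, Psma6 and Psma7 rose and Psma1 fell. Of the non-catalytic beta subunits Psmb1, Psmb3 and Psmb4 rose, and of the catalytic ones Psmb5 did. With library size alone the 7 that rose were at -0.32 to -0.07, and one of them, Psma7, was lower at an adjusted p of 0.0349 from edgeR with BH adjustment.

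Psma6, the alpha subunit with the largest rise in the core, was at 88.3, 76.6 and 78.5 CPM in the ethanol-exposed mice and 55.9, 53.6 and 51.7 CPM in the control mice. The groups did not overlap, and the log2 fold change was 0.60 (SE 0.10, edgeR's BH-adjusted p = 0.00360). Psmb4 and Psma2 followed with 0.58 and 0.55, and Psmb1, Psmb3 and Psma7 with 0.49, 0.42 and 0.37. Psma6, Psmb4 and Psma2 were called higher in 15 of the 18 settings and Psmb1 in 14, whereas Psmb3 and Psma7 were called higher in 7, not without ethanol replicate 1 or any 1 of the control mice, and Psma7 was called lower in 3. Psma2 shares its strand with part of AW209491, another protein-coding gene, which had 344 to 597 counts in ethanol-exposed and 923 to 1323 in control mice, so reads of the pair could have been split.

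Psma1 went the other way. This alpha subunit (ENSMUSG00000030751, chr7:113863841-113875353, minus strand, as the deposited table gives it) was at 41.2, 45.6 and 38.6 CPM in the ethanol-exposed mice and 72.8, 66.0 and 62.1 CPM in the control mice. The highest ethanol-exposed mouse was below the lowest control mouse, and the log2 fold change was -0.68 (SE 0.11, edgeR's BH-adjusted p = 0.00326). Over all 18 settings it ranged from -1.35 to -0.57 and passed the test in each. Within the core the contrast needs no scaling between libraries, because the share of a subunit in the summed FPKM of the 14 subunits can be read inside 1 library. Psma1 made up 2.60, 3.22 and 2.76% of that sum in the ethanol-exposed mice and 6.27, 5.56 and 5.39% in the control mice. Psma6 made up 13.4, 13.0 and 13.4% and 11.5, 10.8 and 10.7%, in the same order. By this share 4 of the 14 core subunits lay wholly higher, 4 wholly lower and 6 overlapped. By the share in the summed cap FPKM, 4 cap subunits lay wholly higher, 9 wholly lower and 4 overlapped. Shares of a sum move against each other and have no counterpart over all genes, so these counts are not a result about the members.

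Of the 3 catalytic subunits 1 passed the test. Psmb5, the chymotrypsin-like subunit, was at 77.6, 69.5 and 65.0 CPM in the ethanol-exposed mice and 53.3, 59.7 and 53.4 CPM in the control mice. It rose by 0.35 on the log2 scale (SE 0.11, edgeR's BH-adjusted p = 0.0376), a call that was made in 4 of the 18 settings, lost with the length trend removed (0.10) and turned to lower with limma on FPKM, on log2(FPKM + 1) at -0.32. Psmb6, the caspase-like subunit, was at 92.6, 77.1 and 69.7 CPM against 57.0, 63.3 and 66.1 CPM, with no overlap but a wide spread, at a log2 fold change of 0.36 (SE 0.13) that did not pass (edgeR's BH-adjusted p = 0.0626). In the deposited FPKM Psmb6 lay wholly lower instead, at 35.8, 32.1 and 26.7 against 36.0, 39.8 and 41.5. Psmb7, the trypsin-like subunit, was at 87.8, 80.6 and 69.0 CPM against 66.9, 74.0 and 64.9 CPM, where the groups overlapped, at 0.21 (SE 0.12, edgeR's BH-adjusted p = 0.207). Psmb7 was called lower in 3 of the 18 settings and higher in 1. Psma3, Psma4, Psma5 and Psmb2 were at 0.08 to 0.22 and did not pass either. Each was called lower in 3 of the 18 settings, and Psma3 also higher in 1. Their lowest log2 fold changes over the settings were -0.56, -0.59, -0.51 and -0.45, in that order.

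Of the 17 subunits of the 19S cap 4 rose under TMM scaling (Psmc1, Psmd4, Psmd8 and Psmd13), 4 fell (Psmc2, Psmc3, Psmc6 and Psmd7) and 9 did not pass, with a median log2 fold change of -0.11. The shares that rose and fell, 23.5% each, were near the 21.5% of all genes tested that rose and the 21.5% that fell, and the difference in counts between cap and core was not tested. Among the 6 ATPases that unfold substrates 1 rose and 3 fell, and among the 11 non-ATPase subunits 3 rose and 1 fell. With the length trend removed (23.9% of all genes tested rose, 17.9% fell), 5 cap subunits rose, 1 fell (Psmd7) and the median was -0.01. With library size alone (7.39% rose, 48.3% fell), 1 cap subunit rose, 13 fell and the median was -0.78. Among genes of mean FPKM 5 or more alone, refitted, 2 of the 17 rose, 9 fell and the median was -0.38. Of those 4328 genes 29.3% rose and 27.5% fell. The number of falls changed with single mice, from 5 cap subunits without ethanol replicate 3 to 0 without any 1 of the control mice, while the share of all genes tested that fell was 27.4% without the former and 13.5% to 14.3% without any 1 of the latter.

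Psmd8 had the largest rise of all 50 members. It encodes a lid subunit, RPN12 in yeast (ENSMUSG00000030591, chr7:28873613-28880126, minus strand, as the deposited table gives it). It was at 173, 167 and 154 CPM in the ethanol-exposed mice and 73.2, 77.7 and 76.0 CPM in the control mice, which is 165 ± 9.82 against 75.7 ± 2.28 CPM (SD, n = 3). The ethanol-exposed mice lay far above the control mice, and the log2 fold change was 1.12 (SE 0.10, edgeR's BH-adjusted p = 0.000282). It was 0.46 with library size alone and passed in all 18 settings. As a share of the summed cap FPKM, Psmd8 was at 14.0, 13.4 and 12.3% in the ethanol-exposed mice and 6.53, 6.73 and 6.69% in the control mice, with no overlap.

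Psmc1, an ATPase and the cap gene with the highest mean FPKM, was at 101, 95.4 and 104 CPM in the ethanol-exposed mice and 72.5, 67.1 and 69.2 CPM in the control mice. The groups did not overlap, at a log2 fold change of 0.52 (SE 0.09, edgeR's BH-adjusted p = 0.00424), and with library size alone it was -0.15. The ubiquitin receptor Psmd4 rose by 0.41 and Psmd13 by 0.57, with library size alone at -0.26 and -0.09. Neither was called higher with only genes of mean FPKM 5 or more kept. Over the 18 settings Psmd4 was called higher in 13 and Psmd13 in 14. Psmd4 was called lower with limma on log2(FPKM + 1) and log2(FPKM + 0.1), at -0.25 and -0.26, and missed the threshold without control replicate 3. Psmd13 overlaps Sirt3, a gene of the opposite strand that was counted 2263 to 3189 times in ethanol-exposed and 3049 to 4540 times in control mice, and the use of the strand in counting is not stated. It also shares its strand with the processed pseudogene Gm15542, which had 308 to 783 counts in ethanol-exposed and 668 to 843 in control mice, so reads of that pair could have been split.

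Psmd7, a lid subunit that pairs with the deubiquitinase PSMD14, had the lowest fold change of the cap. It was at 24.7, 29.5 and 39.9 CPM in the ethanol-exposed mice and 48.8, 52.6 and 50.3 CPM in the control mice. No value overlapped, although the ethanol-exposed mice spread widely, and the log2 fold change was -0.69 (SE 0.18, edgeR's BH-adjusted p = 0.0179). Without ethanol replicate 2 or any 1 of the control mice it missed the threshold, with edgeR's BH-adjusted p from 0.0503 to 0.0656. The ATPases Psmc2, Psmc6 and Psmc3 fell by 0.36, 0.32 and 0.26 on the log2 scale, and with the length trend removed they were at -0.18, -0.18 and -0.18 and no longer passed. PSMD14 itself, which cuts the ubiquitin chain off the substrate, was at -0.12, and the large scaffold genes Psmd1 and Psmd2 were at -0.31 and -0.25, none of them past the threshold.

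**Figure D2:**
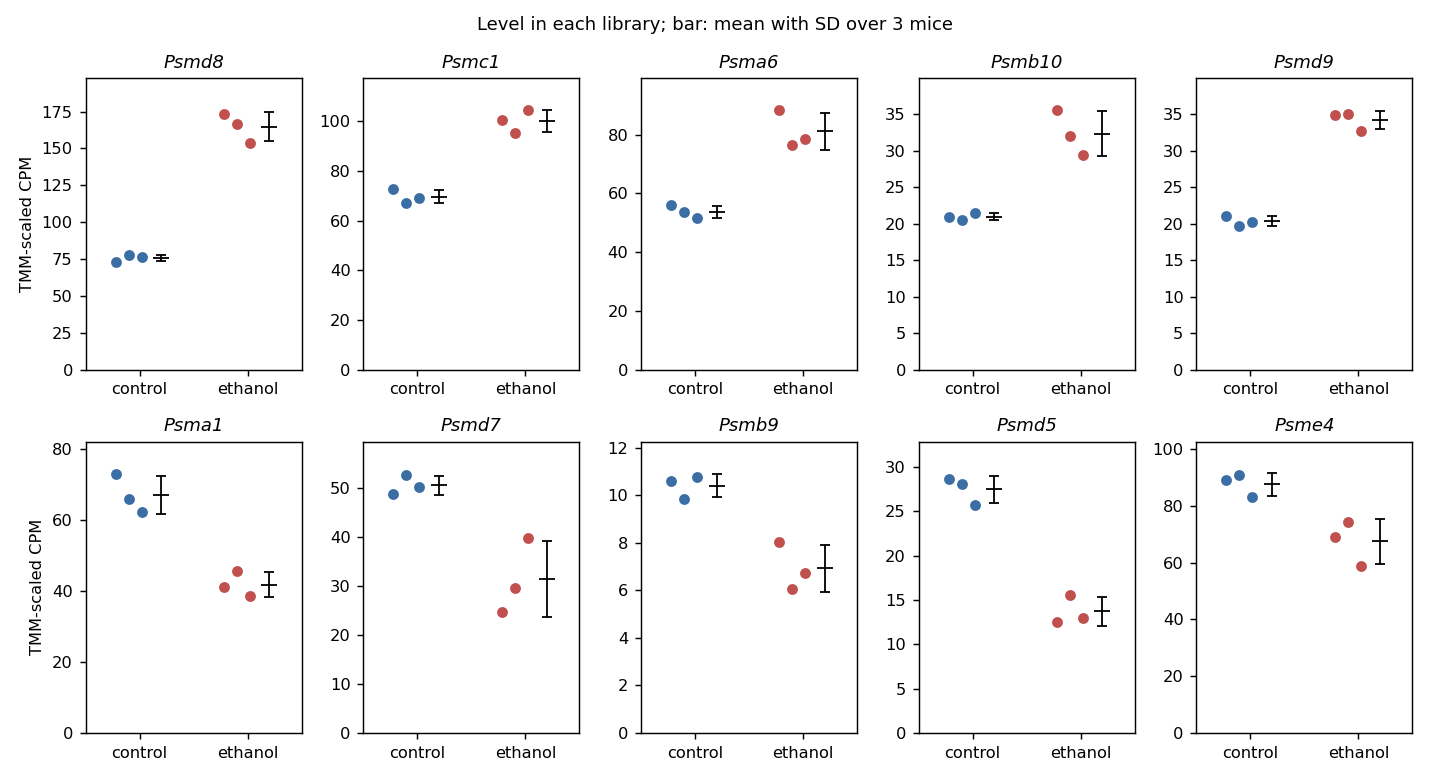
TMM-scaled CPM (vertical axes, from 0) of 10 proteasome genes in each of the 3 control and 3 ethanol-exposed mice, with the mean and SD beside the points. The groups do not overlap in any of the panels, with Psmd8 at 154 to 173 CPM in ethanol-exposed and 73.2 to 77.7 CPM in control mice; with library size alone, Psmc1, Psma6 and Psmb10 were below 0 on the log2 scale and not called.

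The relation of cap to core was then read inside each library, where no scaling enters. The summed FPKM of the 17 cap genes over that of the 14 core genes was 0.758, 0.847 and 0.861 in the ethanol-exposed mice and 0.933, 0.940 and 0.951 in the control mice. The ratio was thus 0.822 ± 0.056 against 0.941 ± 0.0092 (SD, n = 3), and no ethanol-exposed mouse reached the control range. Ethanol replicate 1 stood lowest. On the scale of fold changes, the median of the core exceeded that of the cap by 0.47 (log2) under TMM scaling, by 0.47 with library size alone, by 0.36 with the length trend removed and by 0.33 without ethanol replicate 1. The genes of the cap also spread more among themselves in ethanol-exposed livers, with a coefficient of variation of FPKM over its 17 genes of 55.6% to 58.8% against 37.4% to 39.4% in the control mice, and the core did so less, with 58.6% to 62.5% against 48.9% to 54.2%. No test was made on these ratios, which were chosen after the values were seen.

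The inducible subunits of the immunoproteasome did not move as a unit, although Psmb8 and Psmb9 are neighbours in the MHC region of chromosome 17. Psmb10, which replaces Psmb7 and lies on chromosome 8, was at 35.5, 32.0 and 29.4 CPM in the ethanol-exposed mice and 21.0, 20.5 and 21.5 CPM in the control mice. The groups did not overlap, and it rose by 0.63 on the log2 scale (SE 0.11, edgeR's BH-adjusted p = 0.00387), while with library size alone it was at -0.04. Psmb8, which replaces Psmb5, was at 20.7, 19.4 and 21.8 CPM against 13.9, 17.8 and 16.5 CPM, and its log2 fold change of 0.36 (SE 0.13) did not pass (edgeR's BH-adjusted p = 0.0591), although it did with the length trend removed (0.49).

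Psmb9, which replaces Psmb6 (ENSMUSG00000096727, chr17:34400961-34406738, minus strand, as the deposited table gives it), was at 8.01, 6.07 and 6.73 CPM in the ethanol-exposed mice and 10.6, 9.84 and 10.7 CPM in the control mice. All ethanol-exposed mice were below all control mice, and it fell by 0.58 on the log2 scale (SE 0.15, edgeR's BH-adjusted p = 0.0199). The call was lost with the length trend removed (-0.43, edgeR's BH-adjusted p = 0.0585) and without ethanol replicate 2 or any 1 of the control mice. Psmb9 overlaps Tap1, the peptide transporter gene, on the opposite strand, and Tap1 had 1116 to 1627 counts in ethanol-exposed and 1607 to 1761 in control mice.

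To compare each inducible subunit with the one it replaces, its share in the summed FPKM of the pair was taken in each library. The Psmb9 share of Psmb9 and Psmb6 was 4.22%, 3.84% and 4.69% in the ethanol-exposed mice and 8.68%, 7.36% and 7.66% in the control mice, 4.25% ± 0.43 against 7.90% ± 0.69 (SD, n = 3). The Psmb10 share of Psmb10 and Psmb7 was 44.8%, 44.3% and 46.1% against 38.6%, 35.7% and 39.9%, that is 45.1% ± 0.90 against 38.0% ± 2.15 (SD, n = 3). Both pairs separated the groups, in opposite directions. The Psmb8 share of Psmb8 and Psmb5 was 6.61%, 6.90% and 8.15% against 6.47%, 7.35% and 7.57%, where the groups overlapped. By exact two-sided permutation tests over the 6 libraries, p was 0.1 for Psmb9 and for Psmb10 (0.15 after BH adjustment over the 3 pairs) and 0.9 for Psmb8, and 0.1 is the smallest p that 3 against 3 mice allow. Levels between genes rest on the transcript length behind FPKM, and the lengths implied by counts and FPKM (3928 bases for Psmb9, 962 for Psmb5) differ from gene to gene, and each share depends on them. The overlaps of Psmb7 with Nek6 and of Psmb9 with Tap1 could enter the shares too, which was not tested.

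**Figure D3:**
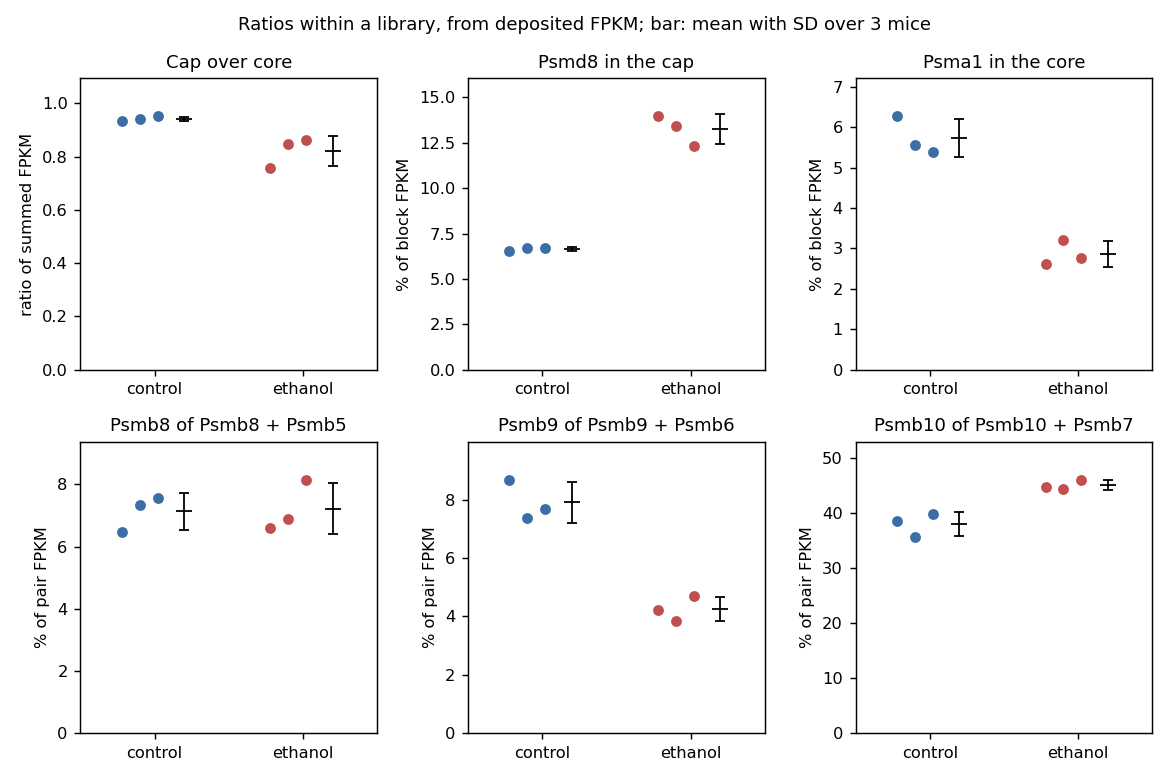
Ratios read within each library from deposited FPKM (vertical axes, from 0) in 3 control and 3 ethanol-exposed mice, with the mean and SD: cap over core, Psmd8 as a percentage of the cap, Psma1 as a percentage of the core, and each inducible subunit as a percentage of its pair. The ethanol-exposed mice lie apart from the control mice in all panels but that of Psmb8, where 6.61% to 8.15% overlaps 6.47% to 7.57%.

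Because leukocytes carry immunoproteasomes, their markers were set beside these values. In bulk liver, fewer cells of a type and less RNA per cell cannot be told apart. The summed CPM of 4 leukocyte markers was 15.4 to 21.8 in ethanol-exposed and 15.7 to 16.7 in control mice, and that of 7 T and NK cell markers was 0.556 to 1.14 against 2.16 to 2.73, with Cd8a at 0 in all ethanol-exposed mice. For 8 Kupffer cell and macrophage markers the sum was 87.5 to 118 against 115 to 125 CPM, for 4 B cell markers 0.825 to 2.40 against 1.20 to 2.07, and for 5 neutrophil markers 1.41 to 9.31 against 0.263 to 0.352, carried by S100a8 and S100a9, the neutrophil markers that could be tested, which both rose (6.29 and 3.98), with Mpo and Elane at 0 in the ethanol-exposed mice. Ethanol replicate 3 stood highest for S100a8 and S100a9, at 2.93 and 6.21 CPM. Replicate 1 was at 0.574 and 0.834 CPM and replicate 2 at 0.654 and 1.68 CPM, and S100a8 had 0, 0 and 4 counts in the control mice. For 4 endothelial markers the sum was 41.7 to 57.9 against 68.6 to 81.6, for 4 stellate cell markers 97.8 to 114 against 78.4 to 94.9, and for 7 hepatocyte markers, by far the most abundant, as the label of liver has it, 124100 to 126500 against 69700 to 81030 CPM. By edgeR under TMM scaling, where 21.5% of all genes tested rose and 21.5% fell, 5 of the 7 hepatocyte markers rose and 0 fell, 1 of the 8 Kupffer markers rose and 2 fell, 0 of the 4 endothelial markers rose and 2 fell, 0 of the 4 B cell markers rose and 1 fell (Ms4a1), and, of 3 T and NK markers tested, 0 rose and 1 fell. With library size alone, where 7.39% rose and 48.3% fell, 1 hepatocyte marker rose and 2 fell, 0 Kupffer markers rose and 6 fell, 0 endothelial markers rose and 3 fell, and of the B cell and of the T and NK markers 0 rose and 1 fell each. Under that scaling 0 stellate markers rose and 3 fell, with Dcn at -0.23 and not called. Of the leukocyte markers 0 rose and 1 fell, with Laptm5 at 0.05 and not called. Under TMM scaling the markers went opposite ways within lists. The stellate sum was mostly Dcn, which rose (0.43, with a mean of 93.2 against 69.3 CPM), while Col1a1 fell by 1.90 on the log2 scale and Lrat and Des were at -0.49 and -0.41 and did not pass. The leukocyte sum was mostly Laptm5, which rose (0.72, with a mean of 13.3 against 8.06 CPM), while Ptprc, which encodes CD45, fell (-1.098, 2.12 against 4.54 CPM). The part of these cells in the proteasome values was not tested.

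Of the activators, which open the core in place of the cap, the interferon-inducible pair PSME1 and PSME2 (PA28 alpha and beta) was above 0 and PSME3 and PSME4 below it under TMM scaling, while with library size alone all 5 activator genes were below 0, the highest at -0.18. Psme1 was at 80.8, 63.9 and 70.6 CPM in the ethanol-exposed mice and 51.9, 60.3 and 54.97 CPM in the control mice, a rise of 0.36 on the log2 scale (SE 0.12) just inside the threshold (edgeR's BH-adjusted p = 0.0467) that was called higher in 6 of the 18 settings and lower in 2, both with limma on FPKM, and was at -0.31 with library size alone. Psme2 was at 33.3, 27.3 and 41.6 CPM against 29.6, 26.8 and 22.7 CPM, where the groups overlapped, at 0.37 (SE 0.18, edgeR's BH-adjusted p = 0.132). Psme2b, a copy of Psme2 whose reads could have been shared with it, was at 0.48 and did not pass.

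Psme3, the nuclear activator PA28 gamma, was at 34.9, 37.4 and 37.5 CPM in the ethanol-exposed mice and 39.8, 41.9 and 40.2 CPM in the control mice. The values did not overlap, yet the log2 fold change of -0.15 (SE 0.09) did not pass (edgeR's BH-adjusted p = 0.222). Psme4, which encodes the large activator PA200, was at 68.9, 74.4 and 58.9 CPM against 89.0, 90.7 and 83.1 CPM and fell by 0.38 (SE 0.12, edgeR's BH-adjusted p = 0.0348). Psme4 has the longest transcript of the activators, 8969 bases, and with the length trend removed it was at -0.19 and did not pass. Its call was also lost with the replicate number as a block, and without ethanol replicate 1 or any 1 of the control mice. Psmf1, which encodes the core inhibitor PI31, rose by 0.47 (SE 0.11, edgeR's BH-adjusted p = 0.0105), with library size alone at -0.19.

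Among the 7 assembly chaperones 1 rose (14.3%) and 2 fell (28.6%), near the 21.5% of all genes tested in each direction. Psmd5 (S5B), Psmd9 (p27) and Psmd10 (gankyrin) hold ATPases while the base of the cap is built, and Psmg1 to Psmg4 assemble the alpha ring. Psmd5 (ENSMUSG00000026869, chr2:34739746-34764980, minus strand, as the deposited table gives it) was at 12.5, 15.6 and 13.0 CPM in the ethanol-exposed mice and 28.6, 28.1 and 25.7 CPM in the control mice. The groups lay far apart, at a log2 fold change of -1.004 (SE 0.12, edgeR's BH-adjusted p = 0.00110), so that it passed the fold threshold by a narrow margin and with the length trend removed (-0.81) stayed inside it. Cutal, on the opposite strand of Psmd5, had 322 to 466 counts in ethanol-exposed and 2614 to 3371 in control mice, next to 709 to 953 and 2120 to 2689 for Psmd5, and the part of shared reads in its fall was not tested.

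Psmd9 was at 34.9, 35.0 and 32.7 CPM in the ethanol-exposed mice and 21.1, 19.8 and 20.2 CPM in the control mice. It rose by 0.75 (SE 0.10, edgeR's BH-adjusted p = 0.00119) and was at 0.08 with library size alone. It overlaps Hpd on the opposite strand, a hepatocyte enzyme gene with 82783 to 130154 counts per library, next to 1505 to 2143 for Psmd9. Where the pair overlap, reads cannot be told apart without the strand, and the part of such reads in the rise was not tested. Psmg2 fell by 0.44 (SE 0.14, edgeR's BH-adjusted p = 0.0350). The Psmg2 call was made in 12 of the 18 settings. It was lost with the replicate number as a block, and without ethanol replicate 1 or 2 or any 1 of the control mice. Psmg1, the chaperone with the highest mean FPKM, was at 14.3, 13.7 and 9.42 CPM against 12.0, 15.5 and 14.9 CPM, with overlap, at -0.18 (SE 0.19, edgeR's BH-adjusted p = 0.482), and Psmg3, Psmg4 and Psmd10 did not pass (-0.20, 0.46 and -0.21).

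The last 3 members were low or uneven. Psma8, which replaces an alpha subunit in the testis, had 23 to 53 counts per library in liver and a log2 fold change of 0.06 (SE 0.42), while the germ cell markers Ddx4, Dazl and Sycp3 summed to 0.0367 to 0.0695 CPM in ethanol-exposed and 0.0971 to 0.181 CPM in control mice. Psmc3ip, a recombination factor, had 0 to 34 counts and did not pass (-1.13, SE 1.26). Psme3ip1 was at 9.92, 10.8 and 23.8 CPM against 18.0, 16.2 and 17.5 CPM. Ethanol replicate 3 stood apart from the other two, so the log2 fold change was -0.21 (SE 0.33) with it and -0.72 without it (edgeR's BH-adjusted p = 0.620 and 0.00103).

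The proteins that work with the proteasome were followed in 4 lists, under TMM scaling, and their counts stand beside the 21.5% of all genes tested that rose and the 21.5% that fell. Of 18 proteasome-associated genes tested, 5 rose and 4 fell, with a median log2 fold change of -0.03. With library size alone, where 7.39% of all genes tested rose and 48.3% fell, 1 rose (Rps27a), 12 fell and the median was -0.69. The rises were in the ubiquitin gene Ubb (0.83), in Rps27a (1.16), which encodes ubiquitin fused to a ribosomal protein, and in Zfand2a (1.23), Sem1 (0.62) and Akirin2 (0.60). Sem1 is the small lid subunit without a Psm name, and AKIRIN2 carries proteasomes into the nucleus. The falls were in shuttle factors that bring ubiquitinated proteins to the cap, Ubqln4 (-0.98), Ubqln1 (-0.65) and Rad23b (-0.49), and in the ligase Ube3c (-0.39). The core assembly factor Pomp (0.08) and the cap deubiquitinases Usp14 (-0.12) and Uchl5 (0.04) did not pass. With the length trend removed Akirin2 (0.57) and Ube3c (-0.21) no longer passed and Zfand5 (0.53) did, and with library size alone Sem1 and Akirin2 were at -0.04 and -0.06.

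Of 9 genes for the transcription of proteasome genes, 2 rose and 4 fell, with a median of -0.29. With library size alone, where 7.39% of all genes tested rose and 48.3% fell, 1 rose (Stat3) and 6 fell. Nfe2l1, which encodes NRF1, was at 29.4, 32.4 and 40.8 CPM in the ethanol-exposed mice and 83.3, 80.6 and 76.3 CPM in the control mice and fell by 1.23 (SE 0.14, edgeR's BH-adjusted p = 0.000803). Ngly1, whose enzyme processes NRF1, fell by 0.44, and the protease gene Ddi2, which acts on NRF1 too, was at 0.36 and did not pass. Of the NF-Y subunits Nfya and Nfyc fell by 1.31 and 0.54 and Nfyb rose by 0.87, and Stat3 rose by 2.03. Of 6 genes for ubiquitin activation and extraction, 1 rose (Ufd1, 0.50, at -0.17 with library size alone) and 3 fell, namely the activating enzyme Uba1 by 0.43, Ubxn4 by 0.72 and Uba6, the second activating enzyme, by 2.38 to 0.770 to 1.11 CPM from 4.55 to 5.604 CPM. With library size alone 0 of the 6 rose and 5 fell, beside the same 7.39% and 48.3%. With the length trend removed Ngly1 (-0.25), Nfyc (-0.44) and Uba1 (-0.25) no longer passed, and Ddi2 (0.55) did.

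Of 10 interferon and antigen presentation genes, 4 rose and 1 fell, with a median of 0.36. With library size alone, where 7.39% of all genes tested rose and 48.3% fell, 1 rose (H2-D1), 4 fell and the median was -0.31. The class I genes H2-D1 (1.18), H2-K1 (0.89) and B2m (0.43) rose with Irf8 (1.01), while Irf1, which induces immunoproteasome genes under interferon, fell by 1.09. Irf1 was at 8.24, 8.55 and 13.8 CPM in the ethanol-exposed mice and 23.4, 21.0 and 20.6 CPM in the control mice, and the groups did not overlap. Tap1 (0.30) and Tap2 (-0.23), Tapbp (0.28), Erap1 (0.08) and Nlrc5 (0.43) did not pass. With the length trend removed B2m (0.16) no longer passed and Tap1 (0.48) and Tapbp (0.43) did, and with library size alone B2m was at -0.24.

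**Figure D4:**
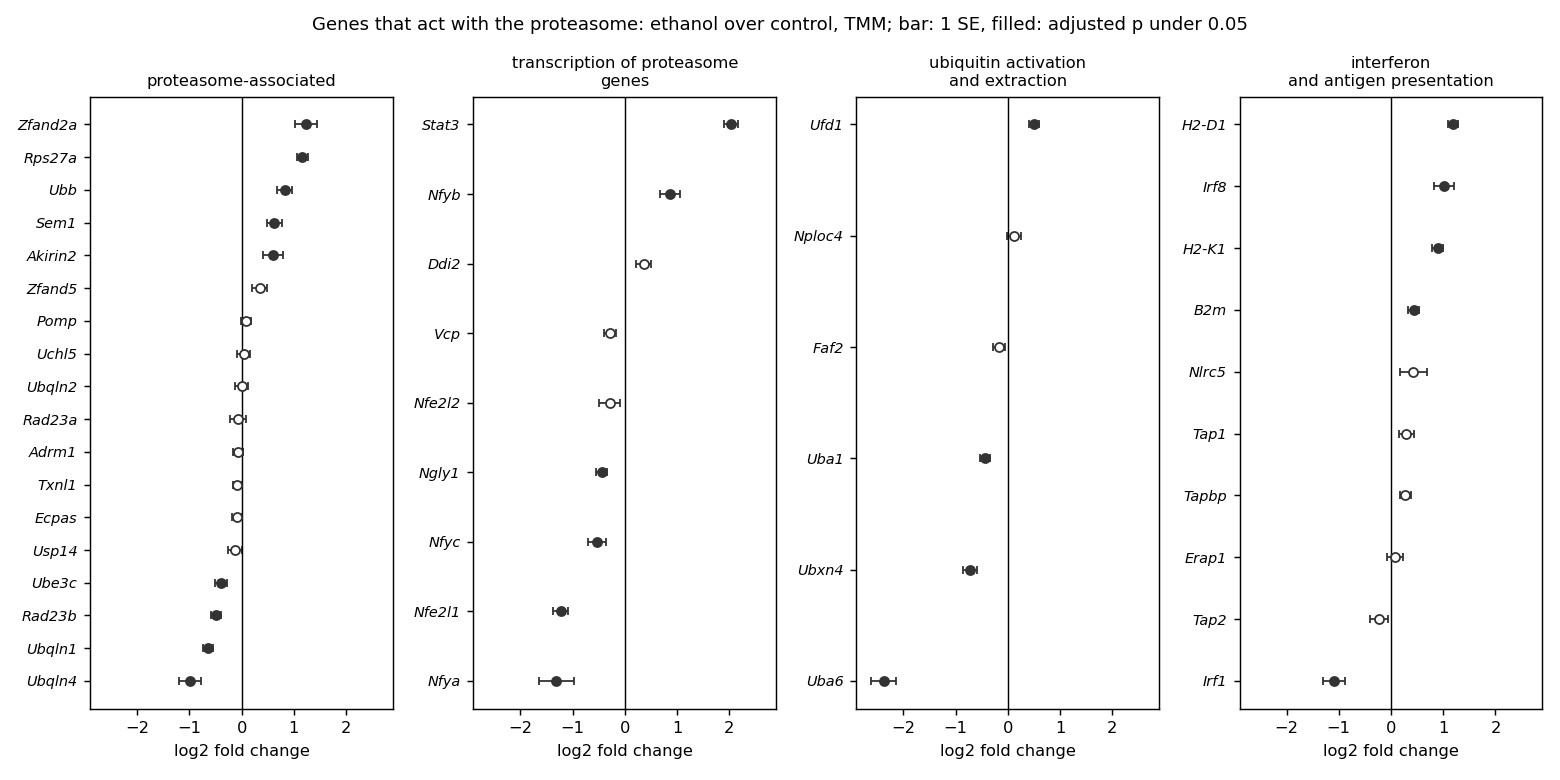
Log2 fold change, ethanol-exposed over control under TMM scaling (horizontal axes), of the tested genes of 4 lists that work with the proteasome, with bars for 1 SE and filled circles for an adjusted p under 0.05 (edgeR, 3 mice per group). Stat3 (2.03) and Uba6 (-2.38) lie furthest from 0, and Nfe2l1 (-1.23) and Irf1 (-1.09) lie on the side of the falls.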

How the data were processed

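Liver RNA-seq of 3 ethanol-exposed and 3 control mice was analysed, with groups and replicate numbers taken from the labels. The authors deposited raw read counts per Ensembl gene and, beside them, FPKM values that the authors scaled to transcript length and library size. The aligner, the counting software and the use of the strand are not given in the sources used here. The submitters' notes name GRCm38 (mm10), yet the start and end of 539 of 27049 genes, and of 0 of the 50 members, equal those of the GRCm38 annotation at hand, so the build of the table's positions is not settled. A further count column (1 in all) has no sample in the series and was left out.

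Counts were compared between groups, without covariates, by the quasi-likelihood test of edgeR 4.0.16 in R 4.3.3 after filterByExpr and TMM scaling, with Benjamini-Hochberg adjustment. DEGs passed 0.05 in adjusted p and 1 in absolute log2 fold change. Alternatives were median ratio, upper quartile and library size scaling, removal of each library's length trend, no filter, a mean FPKM of at least 5, DESeq2 1.42.0, limma 3.58.1 on log2(FPKM + 1) and log2(FPKM + 0.1), the replicate number as a block, the pseudogene rows added, and each library left out. The scripts were tested on simulated data. The number of mice, 3 per group, limits the precision, and what the mice of a group share beyond their labels is not known.

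Members, lists, motifs and marker genes were chosen with earlier results of these data known. Values in every mouse are given for the catalytic pairs, Psme1 to Psme4, DEGs, and the highest and lowest fold change and highest FPKM of the core, the cap and the chaperones. Psme3ip1, the other genes named with values in every mouse and the ratios of cap to core and within a block were chosen after the values were seen. Sequences are from RefSeq, and some genes first placed on the partner and marker lists are not reported here, which the counts of those lists leave out.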

Additional observations from a re-analysis of the deposited data

How the results depend on the processing

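Of the 303 values that the 17 alternatives gave for the 18 members with values in every mouse, 226 kept their direction and their side of the threshold, 38 lost a call, 11 gained one, 18 turned a called direction and 10 turned a direction that was not called. Members that rose numbered 15 under TMM scaling, 1 with library size alone, 6 of 40 with only genes of mean FPKM 5 or more kept, and 1 with limma on either pseudocount, where the shares of all genes that rose were 21.5, 7.39, 29.3 and 7.47 to 7.58% in that order. Members that fell numbered 9 under TMM scaling, 29 with library size alone, 4 with the length trend removed, 13 of 40 with only genes of mean FPKM 5 or more kept, and 32 with limma on either pseudocount, where the shares of all genes that fell were 21.5, 48.3, 17.9, 27.5 and 51.7 to 51.9% in that order. Core subunits that rose numbered 7 under TMM scaling, 4 with upper quartile scaling (18.5% of all genes) and with no filter (11.6%), 3 with only genes of mean FPKM 5 or more kept, and 0 with library size alone and with limma. The library size result of 0 came with 7 core subunits lower, and limma's with 8. Cap subunits that rose numbered 4 under TMM scaling, 1 with library size alone, 2 with only genes of mean FPKM 5 or more kept, and 1 with limma. Those that fell numbered 4, 13, 9 and 14 in that order. Library size alone and limma on FPKM share the scaling to library size, so they are not separate checks of a direction. Beyond this shared scaling and the shift in all genes that it makes, the cause of these shifts was not tested.

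Among the 18 members with values in every mouse, directions that turned, and were called under TMM scaling or in 1 or more of these settings, with library size alone, limma on log2(FPKM + 1) and limma on log2(FPKM + 0.1) were, in that order, those of Psma6 (-0.074, -0.077 and -0.079), Psmb10 (-0.042, -0.047 and -0.050), Psmb5 (-0.32, -0.32 and -0.32), Psmb7 (-0.46, -0.45 and -0.47), Psmc1 (-0.15, -0.14 and -0.15) and Psme1 (-0.31, -0.30 and -0.31). Those of Psmb6, Psmb8 and Psme2, not called under TMM scaling or in these 3 settings, turned too, to between -0.32 and -0.26, as did that of Psmb7 with only genes of mean FPKM 5 or more kept (-0.067). With each library left out, 9 to 19 members rose and 2 to 11 fell, 4 to 9 core subunits and 3 to 5 cap subunits rose, and the core exceeded the cap by 0.33 to 0.49, while 14.5% to 24.7% of all genes rose and 13.5% to 27.4% fell. Members that rose were fewest without control replicate 3 (9) and most without ethanol replicate 3 (19), and members that fell were 4 without ethanol replicate 1, 5 without ethanol replicate 2 and 2 without control replicate 1, 2 or 3. Core subunits that rose were 4 without ethanol replicate 1 and without control replicate 1, 2 or 3. The core exceeded the cap by 0.36 with the length trend removed. The Psmb9 share differed by -6.36 percentage points from CPM not taken per length, against -3.65 from FPKM, and by -3.92 to -3.26 with each library left out.

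Same-numbered mice did not deviate together (correlations of -0.035, -0.021 and -0.017), so the numbers do not pair the samples. With the replicate block 11 members rose, 4 fell and 4 core subunits rose, where 17.3% of all genes rose and 17.3% fell. No pair of libraries of a group had counts equal within sampling noise (chi-square 49.6 to 496 per degree of freedom), so each was counted as 1 sample.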
